A study of Mus musculus with 3 samples.

Results

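The opioid system of the mouse medial prefrontal cortex (mPFC) is described here through its 8 genes, the 4 that encode peptide precursors (Penk, Pdyn, Pnoc and Pomc) and the 4 that encode receptors (Oprl1, Oprd1, Oprm1 and Oprk1). They were chosen by name, and each was found once among the 46073 Ensembl gene rows of the RNA-seq table. The tissue came from untreated, naïve C57BL/6 mice aged 3 months, and the series holds 3 samples, 1 each of RNA, of MeDIP, in which an antibody pulls down DNA with methylated cytosine, and of input DNA. The methylation samples were not analysed here. The design text states 3 RNA replicates, but the table holds 2 value columns that are equal in 46073 of 46073 rows, so every gene has 1 value without an error, and differences between genes could not be tested. Levels are in FPKM, in which the fragments of a gene are scaled by transcript length and by the size of the library, so that genes can be ranked within the sample. The sequencing depth is unknown. All 6 excitatory neuron markers were at 1 FPKM or more, a level that 58.6% of protein-coding rows passed. The listed markers of interneurons and of glia, microglia and vessels passed it too, so this count does not identify the brain region. Nrgn stood at 874 FPKM, Camk2a at 701 FPKM, the cortical glutamate transporter gene Slc17a7 at 353 FPKM, and the cortical transcription factor genes Neurod6 and Tbr1 at 45.2 and 20.7 FPKM.

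Opioid peptides are cut from large precursor proteins in the regulated secretory pathway and act on receptors that couple to inhibitory G proteins, which lower cyclic AMP, open inwardly rectifying potassium channels and close presynaptic calcium channels. Penk yields the enkephalins, which bind the delta and mu receptors (Oprd1 and Oprm1), Pdyn the dynorphins, which prefer the kappa receptor (Oprk1), Pomc beta-endorphin, which binds the mu and delta receptors, and Pnoc nociceptin, the ligand of the nociceptin receptor (Oprl1). In the cortex enkephalin, dynorphin and nociceptin are made mainly by subsets of local neurons, while the neurons that make Pomc peptides lie mainly in the hypothalamus.

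Since the series was made to study methylation, the CpG dinucleotides just before the annotated start sites of these genes are shown, as the sites at which cytosine methylation mostly occurs. The table of RefSeq promoters used here (GRCm38.p6, the assembly also called mm10) held 10 starts for 5 of the 8 genes, Pdyn, Pomc, Oprl1, Oprd1 and Oprm1, and the starts of Penk, Pnoc and Oprk1 were not analysed here. Each run below is the stretch before a start, 5′ to 3′ on the strand of the gene, and was chosen to set the receptor with the most CpGs beside those with few and beside a precursor that has a TATA box. Capitals mark CpG dinucleotides and, in Pomc, also the TATAAA motif. Distal and proximal at Oprm1 give only the order of its annotated starts along the gene and do not name known promoters.
Oprd1, chr4:132144487-132144736, minus strand: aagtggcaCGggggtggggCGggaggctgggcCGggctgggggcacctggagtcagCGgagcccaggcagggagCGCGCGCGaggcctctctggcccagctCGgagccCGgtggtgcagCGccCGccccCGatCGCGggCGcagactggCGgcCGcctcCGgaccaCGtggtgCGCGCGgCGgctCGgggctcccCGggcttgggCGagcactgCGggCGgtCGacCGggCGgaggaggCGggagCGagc
Oprm1, distal start, chr10:6758343-6758592, plus strand: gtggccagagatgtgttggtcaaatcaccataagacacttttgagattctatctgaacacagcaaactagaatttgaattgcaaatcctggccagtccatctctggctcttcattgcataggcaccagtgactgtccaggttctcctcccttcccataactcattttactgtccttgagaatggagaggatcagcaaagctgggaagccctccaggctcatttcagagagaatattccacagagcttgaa
Oprm1, proximal start, chr10:6788320-6788569, plus strand: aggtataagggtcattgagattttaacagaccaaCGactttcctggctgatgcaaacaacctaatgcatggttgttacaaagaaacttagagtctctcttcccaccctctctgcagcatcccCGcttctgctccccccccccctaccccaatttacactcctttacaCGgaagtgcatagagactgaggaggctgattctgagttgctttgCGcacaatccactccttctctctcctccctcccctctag
Oprl1, first start, chr2:181714766-181714999, plus strand: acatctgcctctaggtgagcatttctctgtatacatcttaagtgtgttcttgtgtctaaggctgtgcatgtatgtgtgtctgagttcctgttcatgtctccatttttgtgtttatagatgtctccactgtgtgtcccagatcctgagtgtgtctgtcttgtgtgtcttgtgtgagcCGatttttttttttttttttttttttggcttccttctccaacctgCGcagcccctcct
Pomc, chr12:3954695-3954944, plus strand: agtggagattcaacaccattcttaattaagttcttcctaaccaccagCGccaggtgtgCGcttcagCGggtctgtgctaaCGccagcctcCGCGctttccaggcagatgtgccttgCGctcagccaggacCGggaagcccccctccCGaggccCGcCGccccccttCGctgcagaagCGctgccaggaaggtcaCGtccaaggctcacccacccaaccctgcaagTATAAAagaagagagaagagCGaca

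The receptor genes differed widely in these runs. The 250 bases before the Oprd1 start held 34 CpGs, more than 95.4% of the 20207 promoters of protein-coding genes in the RefSeq table, and were 80.0% G and C, against a median of 10 CpGs and 56.0% over those promoters. At Oprm1, the distal start had 0 CpGs in 250 bases, and the proximal start, 29977 bases downstream, had 4. A further Oprm1 start lay 6 bases beyond the proximal one and shared nearly all of its sequence, with 4 CpGs as well. The 3 starts of Oprl1 had 3, 1 and 2 CpGs in 250 bases. The printed Oprl1 run is shorter, at 234 bases, because it stops where the RefSeq gene begins, and it holds 2 of the 3 CpGs of the first start.

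Among the precursors, Pomc had 15 CpGs before its start and Pdyn had 8 before its first start and 4 before its second. Observed over expected CpG, which corrects for base composition, was 0.882 at Oprd1, 0.684 at Pomc, 0.406 at the first Pdyn start and 0.287 at the proximal Oprm1 start, against a median of 0.546 over all promoters. Thus Oprd1 and Pomc lay above the median promoter by both counts, and Pdyn, Oprm1 and Oprl1 lay below it at every listed start.

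**Figure D1:**
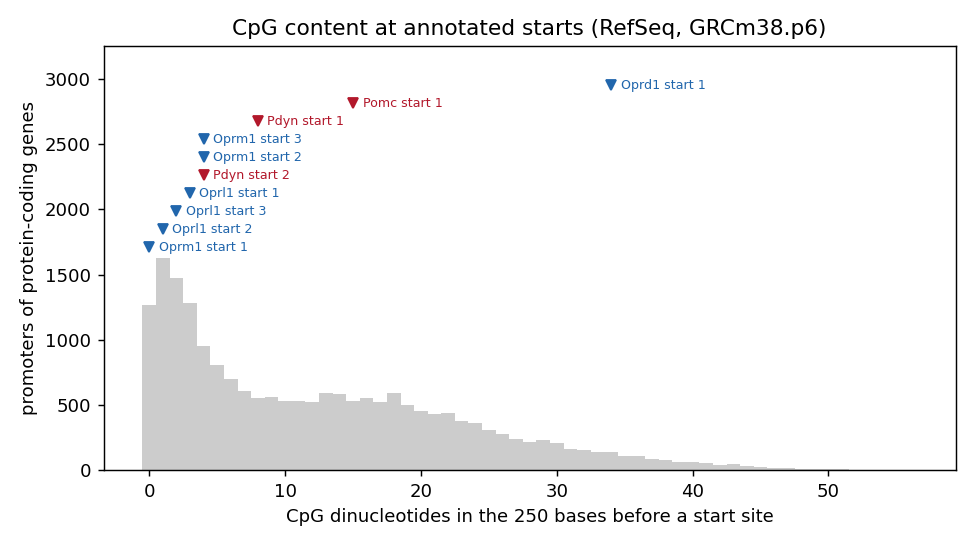
Number of CpG dinucleotides in the 250 bases before a start site (horizontal axis) for 20207 promoters of protein-coding genes (grey bars, number of promoters), with each start of an opioid gene marked by a triangle, blue for receptors and red for precursors; the height of a triangle has no meaning. Oprd1 stands at 34 CpGs and Pomc at 15, above the median of 10, while the starts of Oprm1, Oprl1 and Pdyn lie at 8 or fewer.

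Of 5 motifs searched on both strands of the 250 bases, none was shared by all 5 genes. TATAAA was found 25 bases before the Pomc start on the strand of the gene, and on the opposite strand 140 bases before the first Oprl1 start; 11.1% of all promoters held it. GGGCGG, a GC box, occurred 4 times at Oprd1 and 1 time at Pomc, and 43.7% of promoters held at least 1. CCAAT was found at both Pdyn starts and at the proximal Oprm1 starts, and in 34.9% of promoters. TGACG, one arm of the cyclic AMP response element, and the whole element TGACGTCA, which contains that arm, were found at none of the 10 starts, against 20.5% and 1.97% of all promoters. These are matches of letters in a short window and not binding sites.

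Of the precursors, Penk was the highest and Pomc the lowest. In a bulk sample, fewer cells that express a gene and less RNA per cell cannot be told apart, here and below. Penk (ENSMUSG00000045573, chromosome 4, 4133536 to 4138815) stood at 35.3 FPKM, at rank 2012 of 20631 protein-coding rows and above 90.2% of them. Pdyn (ENSMUSG00000027400, chromosome 2, 129686549 to 129699938) stood at 7.56 FPKM, above 66.0% of protein-coding rows. Pnoc (ENSMUSG00000045731, chromosome 14, 65400673 to 65425564) stood at 2.88 FPKM, close to the middle of protein-coding rows, whose median was 2.58 FPKM. Pomc (ENSMUSG00000020660, chromosome 12, 3954945 to 3960643) stood at 0.850 FPKM, above 40.2% of them. Penk RNA was thus 4.66 times the Pdyn level, 12.3 times the Pnoc level and 41.5 times the Pomc level, and it held 75.8% of the 46.5 FPKM summed over the 4 precursors.

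Of the receptors, the nociceptin receptor gene was the highest and the kappa receptor gene the lowest. Oprl1 (ENSMUSG00000027584, chromosome 2, 181715000 to 181720985) stood at 15.6 FPKM, rank 4347 of the protein-coding rows and above 78.9% of them. Oprd1, the delta receptor gene (ENSMUSG00000050511, chromosome 4, 132110188 to 132144486), stood at 3.39 FPKM, above 53.4% of them. Oprm1, the mu receptor gene and main target of morphine (ENSMUSG00000000766, chromosome 10, 6758593 to 7038209), stood at 0.976 FPKM, above 41.3% of them. Oprk1, the kappa receptor gene (ENSMUSG00000025905, chromosome 1, 5588450 to 5606134), stood at 0.791 FPKM, above 39.7% of them. Oprl1 RNA was 4.61 times the Oprd1 level, 16.0 times the Oprm1 level and 19.8 times the Oprk1 level. It was also 3.03 times the 5.15 FPKM that the 3 classical receptors summed to, and it made up 75.2% of the sum over all 4.

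**Figure D2:**
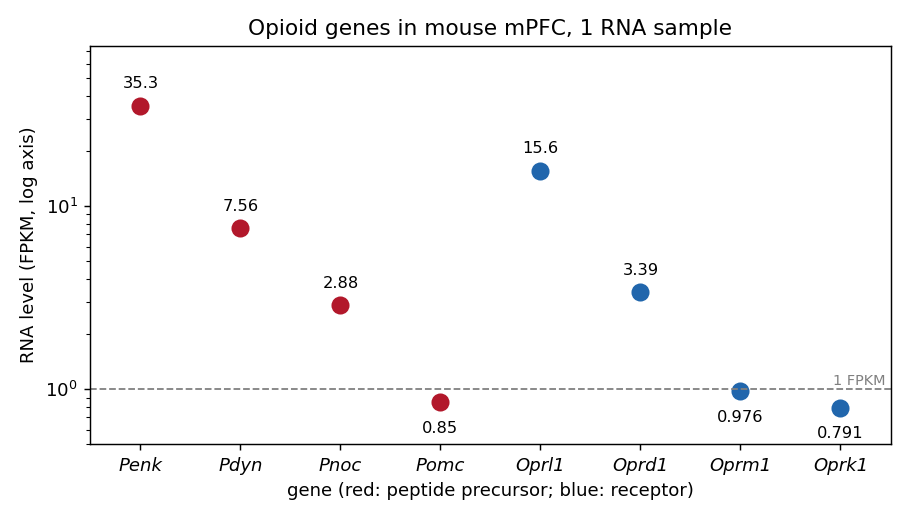
RNA level in FPKM (vertical log axis) of each opioid gene in the 1 RNA sample, red for peptide precursors and blue for receptors, with a dashed line at 1 FPKM. Penk at 35.3 FPKM and Oprl1 at 15.6 FPKM lead their groups, and Pomc, Oprm1 and Oprk1 lie just under the line, between 0.791 and 0.976 FPKM.

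With detection set at 1 FPKM or more, 5 of the 8 genes were detected, 3 of 4 precursors and 2 of 4 receptors. Of all rows 31.5% passed that level, and of protein-coding rows 58.6%, so the share of opioid genes that passed was near that of protein-coding genes. The 3 genes below it, Oprm1, Pomc and Oprk1, were at 0.976, 0.850 and 0.791 FPKM, close under the limit, and none of the 8 was listed at 0. The choice of limit decides the count: at 0.1 FPKM all 8 passed. When the values were rescaled so that rows outside the mitochondrial genome sum to 1000000, which multiplies each by 2.54, all 8 passed 1 FPKM too. That step both leaves out the 37 mitochondrial rows, which held 50.04% of all summed FPKM, and changes the total, and these were not separated. The median over the 8 genes was 3.13 FPKM, against 2.58 FPKM over protein-coding rows and 0.0414 FPKM over all rows. Penk and Oprl1, the only 2 of the 8 to do so, exceeded 9.86 FPKM, the median of the protein-coding rows at 1 FPKM or more.

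**Figure D3:**
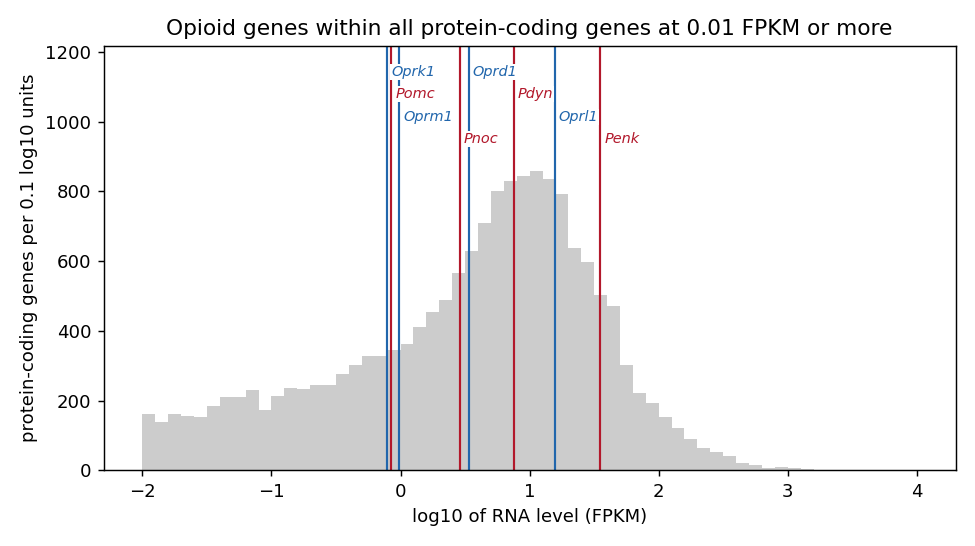
Number of protein-coding genes (vertical axis) by log10 of FPKM (horizontal axis, steps of 0.1) for the 16607 of them at 0.01 FPKM or more, with a vertical line for each opioid gene, red for precursors and blue for receptors. Oprl1 lies close to the peak on its right and Pdyn close to it on its left, with Penk further to the right. Oprd1 and Pnoc lie on the left flank, and Oprm1, Pomc and Oprk1 together near 1 FPKM.

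In order, the levels ran Penk, Oprl1, Pdyn, Oprd1, Pnoc, Oprm1, Pomc and Oprk1, with 44.6-fold between the first and the last. Of the 28 pairs, 21 were 2-fold or more apart in log2(FPKM + 1), a scale that understates differences between low genes. Neighbours in that order were close in 3 cases: Oprd1 was 1.18 times Pnoc, Oprm1 was 1.15 times Pomc, and Pomc was 1.08 times Oprk1. Their order has no replicate behind it. Larger steps in FPKM separated Penk from Oprl1, at 2.26-fold, Oprl1 from Pdyn, at 2.07-fold, Pdyn from Oprd1, at 2.23-fold, and Pnoc from Oprm1, at 2.95-fold. Of these steps, Penk to Oprl1 alone reached 2-fold in log2(FPKM + 1) as well.

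**Figure D4:**
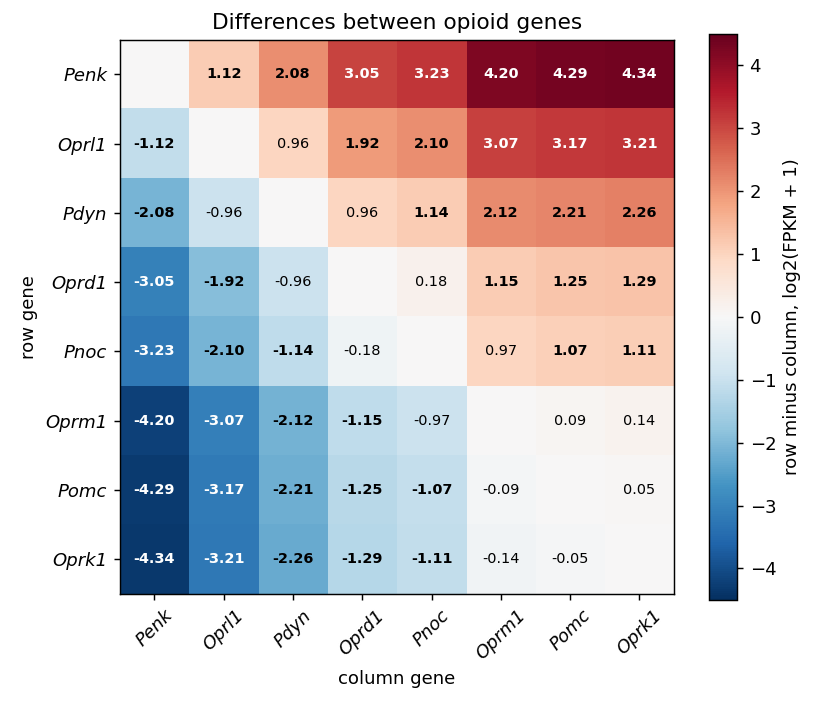
Difference of log2(FPKM + 1) between the gene of each row and the gene of each column, with the genes in order of level from top to bottom and from left to right; red means that the row gene is higher, blue that it is lower, and bold marks a difference of at least 2-fold. Penk is at least 2-fold above every other opioid gene, and the block of Oprm1, Pomc and Oprk1 differs by at most 0.14.

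Set against the receptor that each peptide prefers, the balance of RNA levels differed between the branches of the system. Penk was 10.4 times Oprd1 and 36.1 times Oprm1, and Pdyn was 9.56 times Oprk1. Pnoc had the opposite order, with the receptor gene Oprl1 at 5.43 times its precursor. Pomc and Oprm1 were nearly equal, with Pomc at 0.872 times Oprm1, but Pomc was only 0.251 times Oprd1. The median of the precursors, 5.22 FPKM, was 2.39 times that of the receptors, 2.18 FPKM. Peptides also reach the cortex in fibres from elsewhere, and RNA levels do not measure peptide or receptor protein.

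Among neuropeptide genes Penk was in the upper part and Pomc at the bottom. When the 4 precursors were placed among 12 other neuropeptide genes of cortex, Penk was in position 4 of 16, under Cck at 301, Sst at 297 and Npy at 133 FPKM and 1.63 times Vip, a marker of a class of interneurons. Pdyn was in position 9, next to Cort at 7.44 FPKM, Pnoc in position 12 above Crh at 1.96 FPKM, and Pomc in position 16, under Nts and Cartpt at 1.55 and 1.45 FPKM. All 12 of the other genes were at 1 FPKM or more, as were 58.6% of protein-coding rows, and their median was 11.6 FPKM. The somatostatin receptors, near relatives of the opioid receptors that bind another inhibitory peptide, included 4 genes at similar levels, Sstr2, Sstr3, Sstr1 and Sstr4 at 6.78, 5.92, 5.54 and 5.48 FPKM, and Sstr5 far below them at 0.0603 FPKM. Oprl1 was 2.30 times Sstr2 and thus above all 5 of them, whereas Oprd1, Oprm1 and Oprk1 lay under the first 4.

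RNA of the genes for making, storing and destroying opioid peptides, not all of which encode enzymes, was at 1 FPKM or more throughout both lists. Of 11 genes of peptide processing and storage all 11 passed, beside 58.6% of protein-coding rows, and their median was 56.2 FPKM. Cpe, the carboxypeptidase that trims basic residues from cut peptides, was at 775 FPKM, Scg5, the chaperone of the convertase PC2, at 142 FPKM and the granin gene Chgb at 131 FPKM. Lowest were Ctsl, a protease able to cut proenkephalin, at 32.2 FPKM, the prohormone convertase gene Pcsk1 at 6.65 FPKM and Furin, a convertase of the constitutive pathway, at 5.00 FPKM. Pcsk2, which encodes PC2 and cuts prodynorphin and proenkephalin, was 12.2 times Pcsk1. Of 8 peptidase genes all 8 passed, with a median of 6.31 FPKM: Npepps at 46.7, Ece1 at 24.7, Dpp3 at 10.1, Ace at 6.72, Ece2 at 5.90 and Lnpep at 5.85 FPKM. The genes of the main enkephalin-degrading enzymes, Mme for neprilysin and Anpep for aminopeptidase N, were the lowest, at 1.10 and 1.36 FPKM.

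Genes through which the receptors signal had higher medians than the receptor genes, at 43.5 FPKM for the inhibitory G protein alpha subunits and 18.9 FPKM for the effectors, against 2.18 FPKM for the receptors, although Oprl1 alone, at 15.6 FPKM, was above several of them. All 5 inhibitory G protein alpha subunit genes passed 1 FPKM, from Gnao1 at 334 FPKM through Gnai2 at 73.1, Gnai1 at 43.5 and Gnaz at 15.6 to Gnai3 at 7.39 FPKM. Of 10 effector genes 9 passed, beside 58.6% of protein-coding rows. The calcium-stimulated adenylyl cyclase gene Adcy1 was highest at 70.5 FPKM, followed by the potassium channel subunit genes Kcnj9 at 32.0 and Kcnj3 at 28.8 FPKM. Kcnj6, another neuronal subunit, was at 6.88 FPKM and Adcy8 at 3.51 FPKM, and Kcnj5, a subunit typical of the heart, was lowest at 0.106 FPKM. All 12 genes of receptor kinases, arrestins and RGS proteins, which end receptor signalling, passed 1 FPKM, with a median of 21.0 FPKM. The receptor kinase gene Grk2 was at 140, Rgs4 at 97.1 and Arrb1 at 42.7 FPKM, and Grk3, Rgs9 and Grk5 were lowest at 15.7, 6.13 and 2.58 FPKM.

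**Figure D5:**
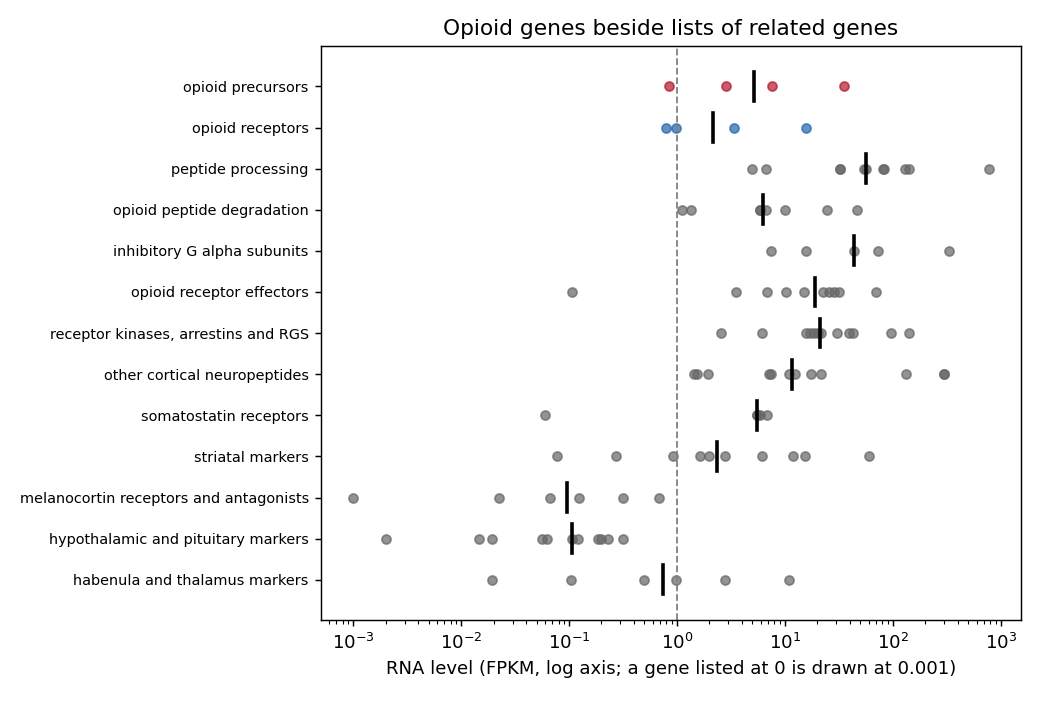
RNA level in FPKM (horizontal log axis) of each gene (dots) in the opioid precursor and receptor lists and in 11 lists of related genes, with a bar at the median of each list and a dashed line at 1 FPKM; a gene listed at 0 is drawn at 0.001. The processing and signalling lists have medians of 18.9 to 56.2 FPKM, the opioid precursors and receptors of 5.22 and 2.18 FPKM, and the melanocortin and hypothalamic lists lie wholly under 1 FPKM.

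Markers of tissue where opioid genes are abundant were examined next. Penk and Pdyn are strong in the striatum, and of 10 striatal markers 7 passed 1 FPKM, with a median of 2.37 FPKM. Of protein-coding rows 58.6% passed that level, with a median of 2.58 FPKM over all of them, so this list was near them. Ppp1r1b at 59.6 and Foxp1 at 15.3 FPKM were the highest and are expressed in cortical neurons too, and Gpr6, Six3 and Isl1 were at 0.926, 0.272 and 0.0772 FPKM. Drd2 and Adora2a, which mark the striatal neurons that make enkephalin, stood at 1.63 and 1.96 FPKM, so that Penk was 21.6 and 18.0 times these. Pdyn was 2.73 times Drd1, the receptor of the striatal neurons that make dynorphin, which was at 2.77 FPKM. The part of striatal cells in the Penk and Pdyn values was not tested.

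Pomc RNA is richest in the hypothalamus and pituitary, and it lay above the markers of both. All 11 markers of those tissues were under 1 FPKM, with a median of 0.107 FPKM: Agrp, Gh and Tshb were highest at 0.315, 0.230 and 0.197 FPKM, and Prl, Pitx1 and Tbx19 lowest at 0.0192, 0.0145 and 0.00204 FPKM. None of those 11 was listed at 0, and Pomc itself, at 0.850 FPKM, was above all of them. For comparison, 58.6% of protein-coding rows were at 1 FPKM or more. The receptors for the melanocortin peptides that Pomc also yields were all under 1 FPKM as well, with Mc4r, the main one of the brain, at 0.679, Mc5r at 0.123, Mc3r at 0.0673 and Mc1r at 0.0225 FPKM, and Mc2r listed at 0. Of that list of 7 genes, which also held Agrp, 6 had a row, and Asip was not matched.

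Oprm1 and Oprk1 are strong in the medial habenula and thalamus and in the claustrum. Of 6 habenula and thalamus markers 2 passed 1 FPKM, a level that 58.6% of protein-coding rows passed. These 2 were Tac2 at 10.8 and Slc17a6 at 2.81 FPKM, both of which have cortical expression. Tcf7l2, Gpr151, Chrnb4 and Gbx2 stood at 0.990, 0.498, 0.104 and 0.0192 FPKM. Of the list of claustrum and endopiriform markers, which holds Oprk1 itself, the other five genes passed 1 FPKM: Gng2 at 92.0, Synpr at 29.9, Nr4a2 at 9.36, Ntng2 at 8.80 and Gnb4 at 6.20 FPKM, all of which cortical neurons express too. The 10 interneuron markers all passed 1 FPKM with a median of 15.2 FPKM. Their highest members were Lamp5 at 153, Gad1 at 127 and Pvalb at 39.8 FPKM, and their lowest Lhx6 at 5.14, Htr3a at 3.70 and Adarb2 at 3.35 FPKM. The 10 markers of glia, microglia and vessels all passed 1 FPKM as well, with a median of 13.8 FPKM, from the myelin gene Mbp at 912, the connexin gene Gja1 at 38.5 and Mog at 30.8 FPKM to Cx3cr1 at 10.6, Tmem119 at 7.66 and Pdgfra at 6.31 FPKM.

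The genomic surroundings bear on how far each value can be assigned to its gene. Oprm1 overlaps Ipcef1 over 152431 bases on the opposite strand, and Ipcef1 stood at 12.8 FPKM, against 0.976 FPKM for Oprm1. Whether counting used the strand is not given in the sources used here, so where their exons overlap, reads of these genes cannot be told apart and the Oprm1 value is uncertain. Oprm1 also has 10 curated RefSeq transcripts (accessions starting NM_) over a span of 279617 bases, Oprl1 8, Pomc 5, Oprk1 3, Penk, Pdyn and Pnoc 2 each and Oprd1 1, and 1 value per gene does not tell isoforms apart. Oprd1 holds a tRNA gene of 72 bases within its span, and the other six opioid genes overlapped no annotated gene. The nearest protein-coding genes of Pomc were Efr3b, 1910 bases away at 23.4 FPKM, and Dnmt3a, a DNA methyltransferase gene, 40501 bases away at 6.60 FPKM. Pnoc lay 1742 bases from Zfp395, at 1.81 FPKM, and 104881 bases from Elp3, at 25.4 FPKM.

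The remaining neighbours ranged from listed at 0 to 128 FPKM. Penk stood at 35.3 FPKM between Sdr16c6 and Gm11780, both listed at 0, at distances of 56021 and 388958 bases. Pdyn lay between Sirpa at 128 FPKM and Stk35 at 5.19 FPKM, and Oprl1 between Lkaaear1 at 0.00973 FPKM and Myt1 at 2.67 FPKM. Oprd1 lay between Epb41 at 5.44 and Ythdf2 at 9.95 FPKM, and Oprk1 between Atp6v1h at 80.2 FPKM and Npbwr1, a neuropeptide receptor gene, at 0.232 FPKM. Beyond Oprm1 on one side lay Cnksr3 at 0.839 FPKM, and its neighbour on the other side, Gm3213, was not matched to a row.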

How the data were processed

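RNA, MeDIP and input DNA of mPFC make up the series, and the gene table of the RNA sample was used. DNase-treated RNA, isolated with Tri-reagent, went into Illumina TruSeq RNA v2 libraries, per the labels' protocols. The submitters' processing notes name CASAVA 1.8.2, TopHat, Cufflinks and build mm10. How these were set, whether strand was used and how replicates were combined is not given in the sources used here. FPKM values without counts are what the authors deposited, so depth is unknown and no counting interval is given.

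Ensembl identifiers were matched to symbols for 45139 of 46073 rows, 934 staying unnamed. Gene class, positions and promoters came from RefSeq, GRCm38.p6, matched by symbol. A percentile is the share of rows with a lower value, computed with pandas 2.3.3 and numpy 2.4.6 in Python 3.11.15, with figures by matplotlib 3.10.9, and tested on simulated data: 200 of 200 simulated ranks and 100 of 100 pair calls came out right. Promoters were taken as 250 bases before a start, leaving out the 50 bases after it.

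The members and the gene lists were chosen with earlier results of these data known. The text names all 8 opioid genes, all genes of lists of up to 8, the 3 highest and 3 lowest of longer lists, and neighbouring genes. Pcsk2, Drd1, Drd2, Adora2a, Vip and Cort were named outside that rule, after their values were seen. A few list members are not reported here by name but enter the counts and medians of their lists. Other floors, pseudocounts, scalings and summaries were computed. The planned description of proteins was not run, as no protein sequences were used here.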

Additional observations from a re-analysis of the deposited data

How the results depend on the processing

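The number of opioid genes at or above the detection limit depended on the limit and the scaling. It was 5 at 1 FPKM, 8 at 0.1 FPKM, 4 at 3 FPKM and 8 at 1 FPKM after rescaling to a total of 1000000 without mitochondrial rows. The number of pairs at least 2-fold apart was 21 of 28 with a pseudocount of 1 FPKM, and 24 with a pseudocount of 0.1 FPKM, with none, or after rescaling. The precursor level over the receptor level was 2.39 by medians and 1.95 by geometric means of FPKM + 1, with the precursors higher in both. Of 16 context lists 13 had most of their members at 1 FPKM or more, 15 at 0.1 FPKM and 12 at 3 FPKM. At 1 FPKM, 58.6% of all protein-coding rows passed too. The percentile of each opioid gene was lower among protein-coding rows and among rows above 0 than among all rows, and its order among the 8 is the same under each. Summing rows by symbol left every opioid gene as it was, since each has 1 row. With 1 value per gene, no library could be left out. No paired analysis was possible because the table holds 1 sample. Depth limits could not be set without counts, and the genes near 1 FPKM have no error.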

Other observations

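A list of 7 genes that bind opioids, carry them in their name or act on their receptors, but are not opioid receptors of the classical family, was at 1 FPKM or more throughout, with a median of 13.3 FPKM. That level was passed by 58.6% of protein-coding rows. Opcml, a cell adhesion protein of neurons named for binding opioids, was at 26.4 FPKM and Ogfrl1 at 22.9 FPKM. Wls, the carrier of secreted Wnt proteins and a binding partner of the mu receptor, was at 13.3 FPKM. Ogfr, the opioid growth factor receptor, was at 10.7 FPKM. Ackr3, an atypical chemokine receptor that also takes up opioid peptides, was at 2.94 FPKM, and Rtp4, a chaperone of opioid receptors, at 1.17 FPKM. Oprm1 was below each of these named genes, and Oprl1 was below Opcml and Ogfrl1 and above Wls, Ogfr, Ackr3 and Rtp4.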
